A study of Mus musculus with 15 samples.

Results

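The genes described here are the metalloproteinases and their tissue inhibitors: matrix metalloproteinases (Mmp), membrane-anchored disintegrin metalloproteinases (Adam), secreted relatives with thrombospondin repeats (Adamts) and tissue inhibitors of metalloproteinases (Timp). They were chosen by gene name alone: Mmp, Adam, Adamts or Timp, a number and at most 1 further letter. The rule found 80 of the 56859 genes in the count table, made up of 23 Mmp, 34 Adam, 19 Adamts and 4 Timp genes. Counts were found for 68 of them, and 53 passed the filter on low counts and were tested: 17 Mmp, 14 Adam, 18 Adamts and 4 Timp genes. All values come from RNA sequencing of whole colon of male C57BL/6J mice that were 6 to 10 weeks old at the start, with 3 libraries in each of 5 groups. The question set by the design is how colon expression changed over an azoxymethane and dextran sulfate sodium course, and with the compound APX3330.

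The APX3330 group is labelled as a colitis-associated cancer model given APX3330 at 25 mg/kg into the peritoneum once a day on each day of dextran sulfate. Its labels give no day of sampling. The saline D27, saline D48 and saline D100 groups are the same model given an equal volume of saline and sampled on days 27, 48 and 100. The model is azoxymethane, a colon carcinogen, at 10 mg/kg on day 0, followed by 2.5% dextran sulfate sodium, which injures the colon lining, as the only drinking water on days 7 to 11, 28 to 32 and 49 to 53. Day 27 thus lies after the first dextran sulfate period and day 48 after the second, although the sample names call the day 48 group cycle 1 and the day 100 group cycle 2. The Control group is labelled wild type only, while the protocol shared by all samples states azoxymethane for every mouse, so its treatment is not certain. The labels do not say whether the libraries of a group came from separate animals, and p-values therefore measure the spread between these libraries only.

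Matrix metalloproteinases are zinc enzymes, most of them made as inactive precursors, that cut collagens, proteoglycans and many secreted proteins. Several (Mmp3, Mmp7, Mmp9, Mmp10 and Mmp13) are known as inducible genes with binding sites for the transcription factor AP-1 near the start of transcription. Adam proteins sit in the membrane and, where catalytically active, release the outer parts of cytokines, growth factors and receptors. Adamts enzymes are secreted and cut proteoglycans or trim procollagens, and the Timp proteins block these enzymes in the extracellular space. APX3330, also called E3330, is an inhibitor of the redox function of APE1/Ref-1, a protein that keeps AP-1 and other transcription factors in a DNA-binding state.

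Library totals lay between 13548661 and 17919613 counts. All 10 markers of colon epithelium fixed for the check were present in every group, with a summed level of 20768 to 37850 CPM (counts scaled to a common library size and corrected for library composition). Some libraries also held transcripts of other tissues. Markers of exocrine pancreas summed to 35097 CPM in saline D48 replicate 2 and 8601 CPM in saline D48 replicate 3, and to at most 71.7 CPM elsewhere. Markers of squamous epithelium summed to 1278 CPM in Control replicate 1, 598 CPM in Control replicate 3 and 895 CPM in saline D100 replicate 1, with 102.8 CPM in saline D48 replicate 2 and at most 8.11 CPM elsewhere. Skeletal muscle markers reached 1865 CPM in Control replicate 1 and 838 CPM in Control replicate 3, against at most 35.6 CPM in the others. Where a call of a described gene ended without these libraries, this is stated beside it or included in its lost alternatives or range of adjusted p. Silence on these libraries beside such a number or range does not mean that the call held without them. The first set left out is the 2 libraries with pancreatic transcripts, which leaves 1 saline D48 library. The second is the 3 libraries with squamous transcripts, which leaves 1 Control library, and in both cases the lone library is assumed to vary like the other groups.

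The metalloproteinase genes stood highest at day 48. Of the 53 tested genes, 27 had their highest group mean in saline D48 (50.9%, against 23.4% of all 18038 genes tested), 13 in Control, 8 in saline D27, 4 in saline D100 and 1 with APX3330. Their lowest group mean fell most often in the APX3330 group, with 24 genes (45.3%, against 18.1% of all genes), and for 0 genes in saline D48. An F test over the 5 groups (edgeR, adjusted p under 0.05) called 39 of the 53 genes, which is 73.6%, where 37.3% of all genes were called. The tests below come from 1 edgeR quasi-likelihood fit with all 15 libraries, p-values were adjusted by Benjamini-Hochberg over all 18038 genes, and "rose" or "fell" is written only for an adjusted p under 0.05. Fold changes are log2 values with their standard error. In whole tissue, fewer cells of a type and less RNA per cell cannot be told apart.

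Against Control, 5 genes rose and 7 fell in saline D27, where 10.2% of all genes rose and 9.36% fell, so that these shares (9.43% and 13.2%) lay near the background. In saline D48, 18 genes rose (34.0%) and 5 fell (9.43%), beside 14.3% and 13% of all genes. The median log2 fold change of the 53 genes there was 0.34, and 0.00 for all genes. In saline D100, 8 rose (15.1%) and 13 fell (24.5%), beside 11.4% and 10.5% of all genes. With APX3330, 6 rose (11.3%) and 12 fell (22.6%), beside 7.16% and 8.18% of all genes, and the median was -0.42. These 4 comparisons share the 3 Control libraries.

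Between the model groups, the largest count was that of APX3330 against saline D48: 1 gene rose and 27 fell (1.89% and 50.9%), beside 9.41% and 10.3% of all genes, with a median log2 fold change of -0.57. Against saline D27, APX3330 colons had 0 genes called higher and 5 lower, beside 4.71% and 4.37% of all genes. Against saline D100 they had 0 called in either direction, beside 0.305% and 0.2% of all genes. Saline D48 had 5 genes called higher and 0 lower than saline D27, beside 0.854% and 0.499% of all genes. Saline D100 had 1 gene called higher and 3 lower than saline D27, beside 1.63% and 1.45%. Saline D100 had 1 called higher and 16 lower than saline D48, beside 7.2% and 6.4%.

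By class, the saline D48 change was carried mostly by the Mmp genes, of which 10 of 17 rose and 0 fell against Control. Of the 14 Adam genes 5 rose and 2 fell, of the 18 Adamts genes 2 rose and 2 fell, and of the 4 Timp genes 1 rose and 1 fell. In APX3330 colons against saline D48, 12 Mmp, 3 Adam, 10 Adamts and 2 Timp genes fell and 1 Adam gene rose. With the mixed libraries left out, 55 of the genes passed the filter. Without the 2 libraries with pancreatic transcripts, 10 genes rose (18.2%, beside 4.97% of all genes) and 1 fell (1.82%, beside 2.79%) in saline D48 against Control. There, 0 rose and 7 fell with APX3330 against saline D48 (12.7% lower, beside 2.67%), 2 rose in saline D48 against saline D27 (3.64%, beside 0.0606%) and 5 fell in saline D100 against saline D48 (9.09%, beside 1.36%). When the squamous set of 3 libraries was left out, 9 genes were called higher and 0 lower in saline D48 against Control (16.4% higher, beside 3.07% of all genes), and 3 rose and 6 fell in saline D100 (5.45% and 10.9%, beside 2.43% and 2.64%). In that setting 1 rose and 0 fell in saline D27 (1.82% higher, beside 1.07%) and 0 rose and 2 fell with APX3330 (3.64% lower, beside 1.21%).

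**Figure D1:**
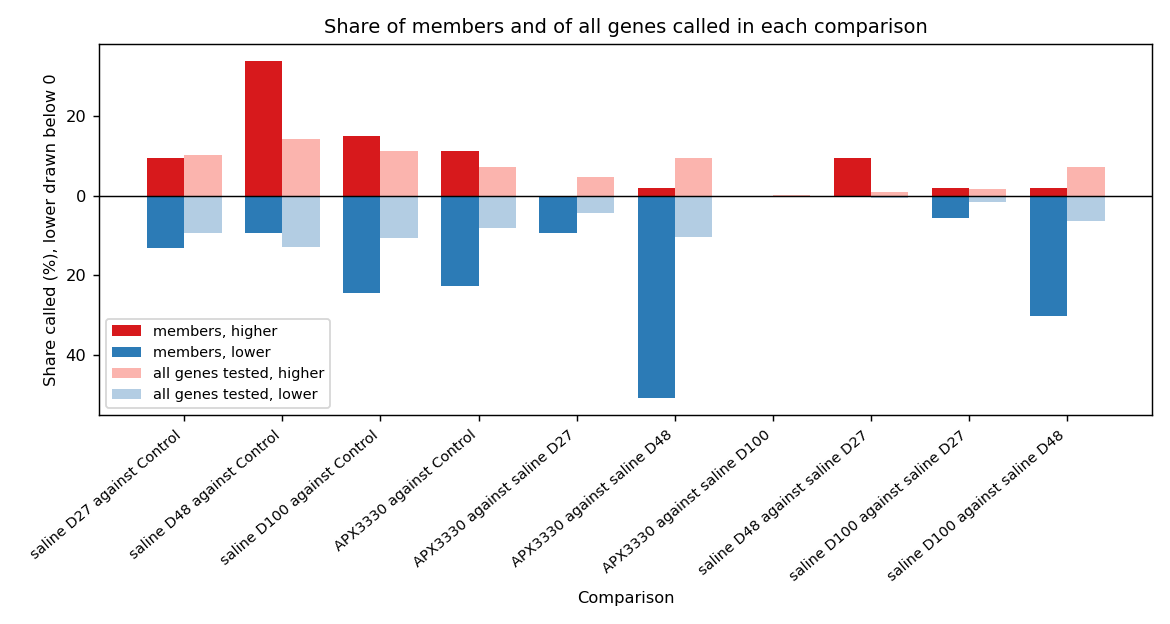
Percent of the 53 tested metalloproteinase genes and of all 18038 tested genes called higher or lower (edgeR, adjusted p under 0.05) in each of the 10 comparisons. The metalloproteinase bar stands furthest from that of all genes for the genes lower with APX3330 than in saline D48, at 50.9% against 10.3%.

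**Figure D2:**
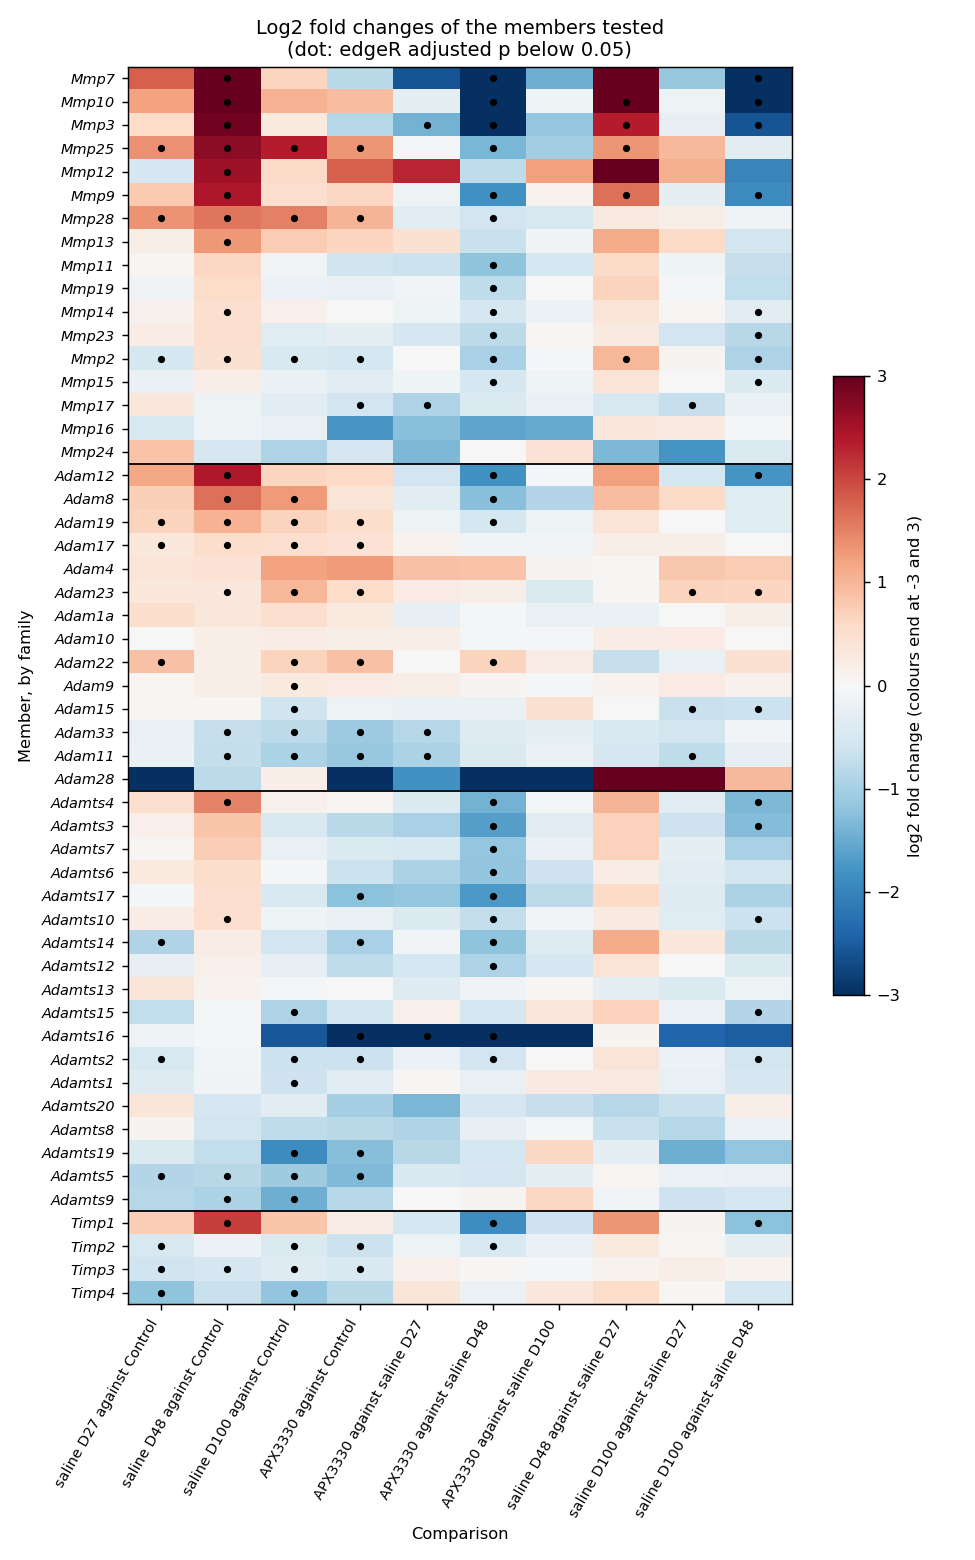
Log2 fold changes of the 53 tested genes (1 line each) in the 10 comparisons, coloured by sign and size, with a dot where the adjusted p was under 0.05. The dots are densest for saline D48 against Control and for APX3330 against saline D48, and the fitted values of Adam28 and Adamts16 rest on groups with 0 counts.

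A row of 10 Mmp genes lies side by side on mouse chromosome 9, and this cluster held the 3 genes with the largest rises in saline D48 against Control. In the GRCm38 build with GENCODE M21 annotation it spans chr9:7272514-7699585, 427 kb, in the order Mmp13, Mmp12, Mmp1b, Mmp3, Mmp1a, Mmp10, Mmp8, Mmp27, Mmp20 and Mmp7. Counts were found for 8 of the 10, with Mmp1a and Mmp1b at 0 in every library. The 100 bases before the RefSeq transcription start of the stromelysin genes Mmp10 and Mmp3, the matrilysin gene Mmp7 and the collagenase gene Mmp13 are shown because all 4 rose in saline D48 against Control and each holds a match to the AP-1 motif. Those of the inhibitor gene Timp1 on chromosome X, which also rose but holds none, are shown beside them. The 4 were picked for both the call and the motif, so their having both is not a result. The call of Mmp7 ended without the pancreatic libraries and that of Timp1 without the squamous libraries. The call of Mmp13 ended in each of these settings. Mmp7 has a second RefSeq start with no match in its window, and the first is the one shown. All are written 5′ to 3′ on the plus strand of GRCm38.p6, at chr9:7502242-7502341, chr9:7445722-7445821, chr9:7691990-7692089, chr9:7272414-7272513 and chrX:20870066-20870165, in the order of the lines. Capitals mark the motif, TGAGTCA or its reverse complement TGACTCA.
Mmp10: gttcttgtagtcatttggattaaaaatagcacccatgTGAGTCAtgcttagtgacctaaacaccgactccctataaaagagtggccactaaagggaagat
Mmp3: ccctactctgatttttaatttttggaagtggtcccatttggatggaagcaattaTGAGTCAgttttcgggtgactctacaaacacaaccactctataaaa
Mmp7: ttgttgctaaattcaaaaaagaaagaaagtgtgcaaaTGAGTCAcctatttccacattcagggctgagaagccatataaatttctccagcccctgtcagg
Mmp13: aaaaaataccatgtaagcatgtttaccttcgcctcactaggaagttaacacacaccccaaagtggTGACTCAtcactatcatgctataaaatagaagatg
Timp1: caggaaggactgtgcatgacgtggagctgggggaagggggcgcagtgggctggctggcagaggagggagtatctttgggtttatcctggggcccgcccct

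The motif begins at base -63 relative to the start in Mmp10 and in Mmp7, at -46 in Mmp3 and at -35 in Mmp13. In windows of 250 bases before to 50 after the start, searched on both strands, it was present for 7 of the 10 cluster genes: Mmp10, Mmp3, Mmp7, Mmp13, Mmp1a, Mmp1b and Mmp12, the last at the second of its RefSeq starts only. Over the 50 genes of the families with a window, 10 held it (20%), the other 3 being Adam1b, Adam29 and Adam19. Of all 27025 genes with a window, 5.95% held it. Among the 18 genes higher in saline D48 than in Control, 13 had a window and 6 of these held it. They were Adam19 and the related cluster neighbours Mmp3, Mmp7, Mmp10, Mmp12 and Mmp13, which are not independent cases. Only exact matches were searched, so variant sites would be missed. A match of letters is a description of the sequence and not a measured binding site.

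**Figure D3:**
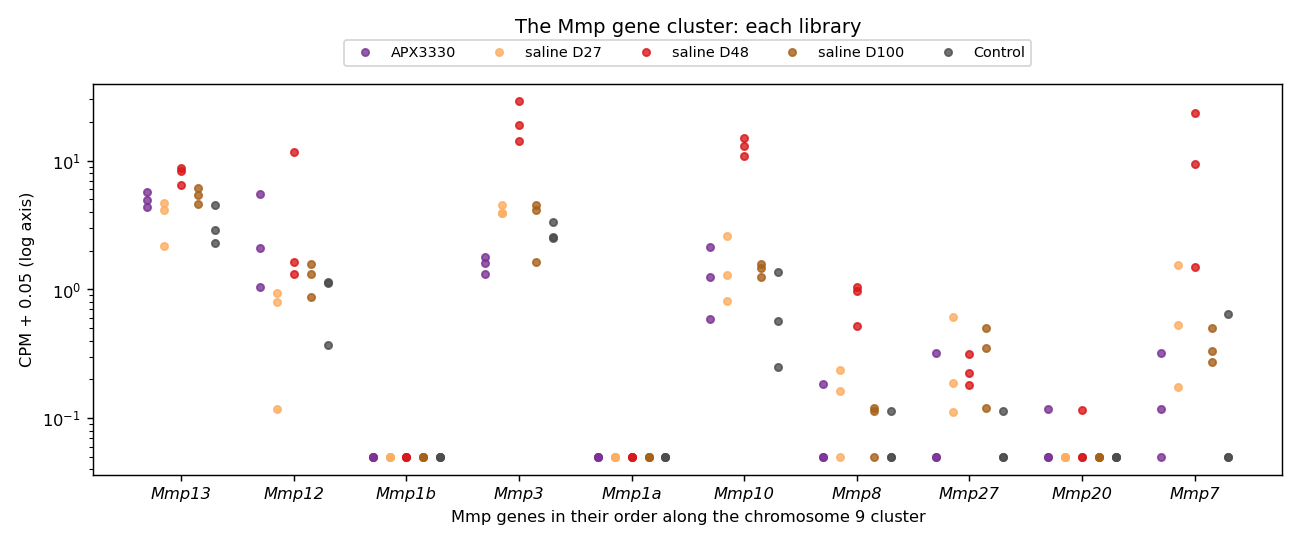
Level of the 10 cluster genes per library, in CPM plus 0.05 on a log axis, in their order along chromosome 9, with the 5 groups side by side and 3 points each. Mmp3, Mmp10, Mmp8 and, by a narrow margin, Mmp13 stand above all other groups in the 3 saline D48 libraries, and Mmp7 in 2 of them. Mmp1a and Mmp1b lie at the floor throughout.

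The stromelysin genes Mmp3 and Mmp10 stood apart in saline D48, while Mmp11, stromelysin-3, was not called there against Control. Mmp3, stromelysin-1, which cuts proteoglycans and activates other Mmp precursors, had 1.55, 1.27 and 1.74 CPM with APX3330, 3.85, 3.86 and 4.47 CPM in saline D27, 18.9, 14.2 and 28.8 CPM in saline D48, 4.1, 4.49 and 1.58 CPM in saline D100, and 3.28, 2.48 and 2.53 CPM in Control. The 3 saline D48 libraries lay above the other 12, and the APX3330 libraries lay below those of saline D27, saline D48 and Control. The log2 fold change was 2.90 ± 0.34 in saline D48 against Control (adjusted p = 5e-05), 2.35 ± 0.33 against saline D27 (adjusted p = 0.00397), -3.76 ± 0.36 for APX3330 against saline D48 (adjusted p = 3.08e-05) and -2.60 ± 0.33 for saline D100 against saline D48 (adjusted p = 0.000327). All 4 calls held in each of the 23 alternative settings, and without the 2 libraries with pancreatic transcripts they were 2.77, 2.22, -3.63 and -2.47. Mmp3 also fell with APX3330 against saline D27 (-1.41 ± 0.35, adjusted p = 0.0243). That call was lost without APX3330 replicate 2 or 3, or saline D27 replicate 1 or 2, among other settings, with adjusted p of 0.0011 to 0.0946 over all alternatives.

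Mmp10, stromelysin-2, known from epithelium at wound edges, had 2.09, 1.2 and 0.536 CPM with APX3330, 2.56, 0.757 and 1.24 CPM in saline D27, 10.9, 13 and 14.9 CPM in saline D48, 1.41, 1.54 and 1.2 CPM in saline D100, and 0.515, 1.31 and 0.2 CPM in Control. Again the saline D48 libraries stood apart, and the other 4 groups overlapped. Mmp10 rose by 4.26 ± 0.57 in saline D48 against Control (adjusted p = 0.000113) and by 3.06 ± 0.51 against saline D27 (adjusted p = 0.0103). It fell with APX3330 against saline D48 (-3.33 ± 0.53, adjusted p = 0.000809) and in saline D100 against saline D48 (-3.21 ± 0.52, adjusted p = 0.00152). The call against saline D27 was lost without saline D27 replicate 2 or 3 and without the 2 libraries with pancreatic transcripts, with adjusted p of 8.29e-10 to 0.201 over the alternatives. Per kilobase of exon, saline D48 colons averaged 11.5 CPM of Mmp3 and 7.51 CPM of Mmp10, against 1.53 and 0.393 CPM per kb in Control. With APX3330 these levels were 0.844 CPM per kb for Mmp3 and 0.741 CPM per kb for Mmp10.

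Mmp7, matrilysin, which in the mouse is known from Paneth cells of the small intestine and from intestinal tumours, varied widely between libraries. It had 0.27, 0 and 0.067 CPM with APX3330, 1.51, 0.482 and 0.124 CPM in saline D27, 1.46, 23.5 and 9.35 CPM in saline D48, 0.283, 0.449 and 0.226 CPM in saline D100, and 0, 0 and 0.599 CPM in Control. The 2 high values are those of the saline D48 libraries with pancreatic transcripts, and saline D48 replicate 1 lay within the range of saline D27. Mmp7 rose by 5.76 ± 1.14 in saline D48 against Control (adjusted p = 0.00179), and it fell with APX3330 (-6.57 ± 1.23, adjusted p = 0.00213) and in saline D100 (-5.11 ± 1.08, adjusted p = 0.00663) against saline D48. Without those 2 libraries the values were 2.81, -3.61 and -2.15, and none of the 3 was called (adjusted p = 0.271, 0.2 and 0.469). All 3 calls also ended with limma-voom, and over all alternatives the adjusted p of the first ran from 3.48e-14 to 0.271. The 6 Paneth cell markers fixed for the check summed to 80.3, 54.5 and 23.3 CPM with APX3330, 59.2, 75.3 and 62.8 CPM in saline D27, 19.5, 119 and 60.6 CPM in saline D48, 51.7, 93.8 and 71.9 CPM in saline D100, and 8.30, 11.5 and 11.4 CPM in Control. In saline D48 the libraries had the same order for these markers as for Mmp7, while saline D27 and saline D100 had sums in the same range with little Mmp7. Of the 4 tested, 3 rose and 0 fell in saline D48 against Control, and 0 rose and 1 fell with APX3330 against saline D48. The part of pancreatic tissue or of Paneth cells in the Mmp7 level was not tested.

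Among the collagenases, which open the triple helix of fibrillar collagen, Mmp13 had 4.32, 5.67 and 4.89 CPM with APX3330, 4.68, 4.06 and 2.11 CPM in saline D27, 8.34, 8.73 and 6.45 CPM in saline D48, 4.59, 5.38 and 6.1 CPM in saline D100, and 2.83, 4.46 and 2.26 CPM in Control. The saline D48 values were the highest, and the lowest of them lay close to the highest of saline D100. Mmp13 rose by 1.30 ± 0.30 in saline D48 against Control (adjusted p = 0.00538), a call that ended in both settings without the libraries of mixed tissue, with adjusted p of up to 0.247. Mmp8, the collagenase of neutrophils, was too low to be tested. It had 2 counts in the 3 APX3330 libraries together, 5 counts in saline D27, 38 counts in saline D48, 2 counts in saline D100 and 1 count in Control. All 3 saline D48 libraries, at 0.992, 0.466 and 0.929 CPM, lay above every other library, of which the highest had 0.186 CPM.

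The gelatinases cut denatured collagen and basement membrane collagen. Mmp9, gelatinase B, carried by neutrophils and macrophages, had 3.72, 2.93 and 2.21 CPM with APX3330, 1.62, 3.31 and 5.02 CPM in saline D27, 9.39, 11.5 and 10.2 CPM in saline D48, 2.54, 2.44 and 3.24 CPM in saline D100, and 1.42, 1.68 and 2.66 CPM in Control. The saline D48 libraries again stood above the other 12. It rose by 2.42 ± 0.36 in saline D48 against Control (adjusted p = 0.000263) in all 23 alternatives, with 2.29 when the 2 libraries with pancreatic transcripts were left out. Mmp9 fell by 1.80 on the log2 scale with APX3330 (SE 0.35, adjusted p = 0.00272) and by 1.92 in saline D100 (SE 0.35, adjusted p = 0.00321), each against saline D48. Against saline D27 it rose by 1.64 ± 0.35 in saline D48 (adjusted p = 0.0314). Without the pancreatic libraries these last 3 calls were lost, and the last was also lost without saline D27 replicate 1 or 2 or saline D48 replicate 2 or 3 (adjusted p of 0.000299 to 0.365 over its alternatives).

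Mmp2, gelatinase A, a product of fibroblasts, was the gene called in most comparisons, 7 of the 10. Its levels were 45.1, 45.7 and 51.8 CPM with APX3330, 54.4, 47.2 and 39.4 CPM in saline D27, 91.2, 105 and 86.5 CPM in saline D48, 52.3, 45.2 and 51.8 CPM in saline D100, and 64.6, 75.4 and 64.2 CPM in Control. Saline D48 lay above Control and Control above the other 3 groups, with no overlap. Mmp2 fell by 0.98 with APX3330 (SE 0.12, adjusted p = 0.000136) and by 0.92 in saline D100 (SE 0.12, adjusted p = 0.00036) against saline D48, and it rose by 1.00 ± 0.12 in saline D48 against saline D27 (adjusted p = 0.00199). These 3 calls held in all alternatives. Against Control it rose in saline D48 (0.47 ± 0.12, adjusted p = 0.00837) and fell in saline D27 (-0.53 ± 0.12, adjusted p = 0.00633), in saline D100 (-0.45 ± 0.12, adjusted p = 0.0136) and with APX3330 (-0.52 ± 0.12, adjusted p = 0.00954). Those 4 calls were lost without the 3 libraries with squamous transcripts, with the log2 fold changes then at 0.30, -0.70, -0.65 and -0.67. The saline D48 call was also lost without the pancreatic libraries, and the saline D100 call without saline D100 replicate 2 or Control replicate 2, where adjusted p ran up to 0.0696.

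Mmp12, macrophage elastase, had 5.47, 2.07 and 1.0 CPM with APX3330, 0.892, 0.0689 and 0.744 CPM in saline D27, 1.59, 11.7 and 1.28 CPM in saline D48, 1.27, 1.54 and 0.828 CPM in saline D100, and 0.322, 1.1 and 1.07 CPM in Control. Its high values were those of saline D48 replicate 2 and APX3330 replicate 1. The rise in saline D48 against Control (2.54 ± 0.87, adjusted p = 0.0407) rests on the first of these. Without that library the log2 fold change was 0.79, and the call ended in 12 of the 23 alternatives (adjusted p of 6.69e-05 to 0.613). Leaving out APX3330 replicate 2, saline D27 replicate 3, saline D100 replicate 2 or any 1 of the Control libraries also ended it.

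Markers of several cell types, among them cells known to make several of these enzymes, differed between saline D48 and other groups, though not all in the same way. The 10 macrophage markers summed to 491 to 669 CPM with APX3330, 713 to 955 CPM in saline D27, 1052 to 1403 CPM in saline D48, 711 to 935 CPM in saline D100 and 345 to 480 CPM in Control. Of the 10, 8 rose and 0 fell in saline D48 against Control, and 0 rose and 7 fell with APX3330 against saline D48. Of the 6 neutrophil markers tested, 5 rose and 0 fell in saline D48 against Control, and 0 rose and 5 fell with APX3330 against saline D48. The sum of all 8 neutrophil markers on the list, mostly Ly6g, was 25.7 to 64.5 CPM with APX3330, 112 to 123 CPM in saline D27, 140 to 157 CPM in saline D48, 53.1 to 83.1 CPM in saline D100 and 103 to 138 CPM in Control, and Mpo was at 0 with APX3330 and in saline D100. The 9 fibroblast markers summed to 1816 to 2132 CPM with APX3330, 2076 to 2536 CPM in saline D27, 3317 to 3755 CPM in saline D48, 1952 to 2096 CPM in saline D100 and 3020 to 3558 CPM in Control. Saline D48 and Control thus lay above the other 3 groups, as they did for Mmp2. Of the 9 fibroblast markers, 3 rose and 1 fell in saline D48 against Control, and 0 rose and 6 fell with APX3330 against saline D48. Of the 7 endothelial markers, 4 rose and 0 fell in saline D48 against Control, and 0 rose and 2 fell with APX3330 against saline D48. All 7 T cell markers rose in saline D48 against Control, and 0 rose and 4 fell with APX3330 against saline D48. Their sum was 36.5 to 45.2 CPM with APX3330, 43.0 to 79.2 CPM in saline D27, 54.8 to 151 CPM in saline D48, 47.6 to 57.8 CPM in saline D100 and 14.7 to 19.6 CPM in Control. Of the 8 adipocyte markers, 0 rose and 1 fell in saline D48 against Control. With APX3330, 0 of them rose and 6 fell against saline D48, and 0 rose and 7 fell against saline D27. They summed to 22.4 to 44.9 CPM with APX3330, 65.3 to 184 CPM in saline D27, 63.8 to 92.4 CPM in saline D48, 89.2 to 133 CPM in saline D100 and 61.1 to 104 CPM in Control. The part of these cell types in the results was not tested.

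**Figure D4:**
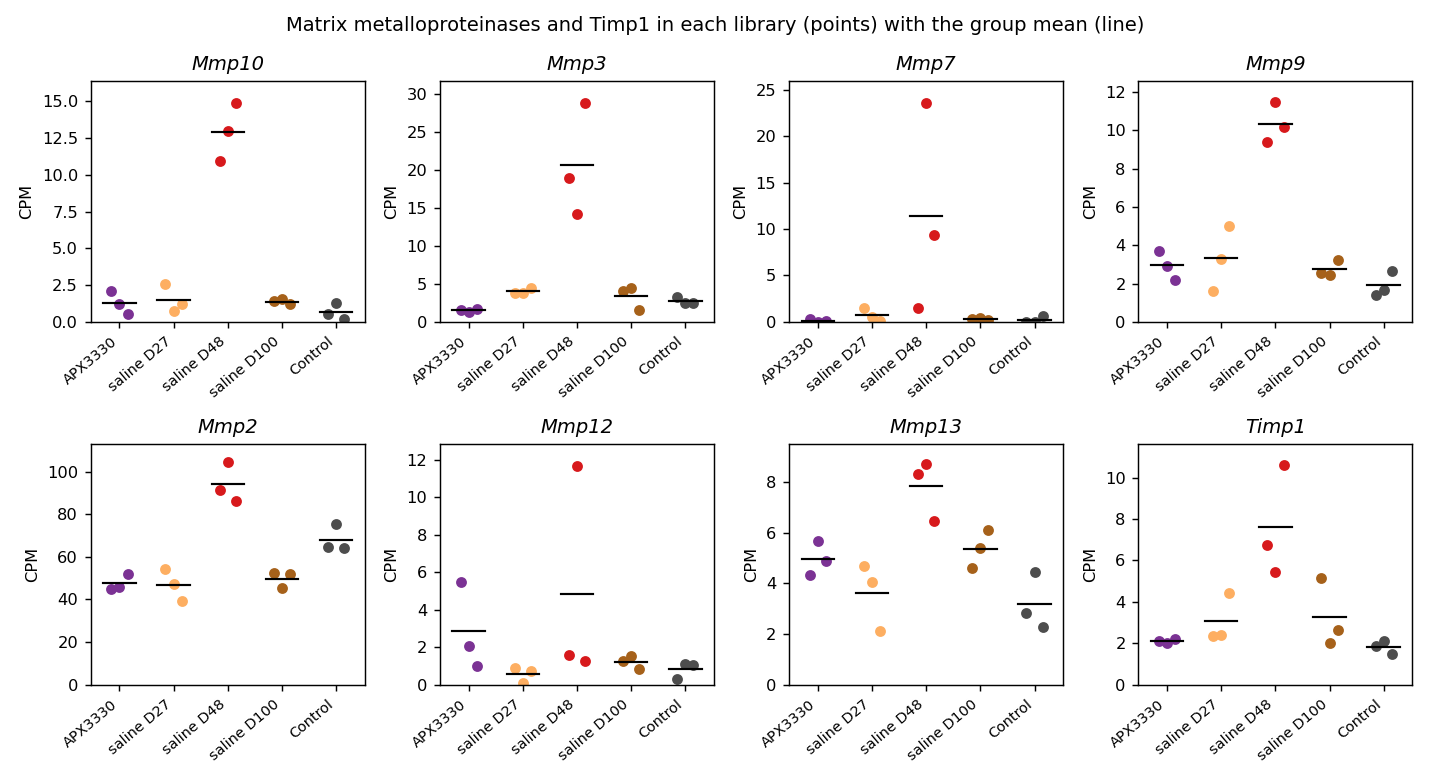
CPM per library of Mmp10, Mmp3, Mmp7, Mmp9, Mmp2, Mmp12, Mmp13 and Timp1 in the 5 groups, with 1 point per library and a line at the group mean, each panel on its own axis from 0. Mmp10, Mmp3, Mmp9, Mmp2 and, by a narrow margin, Mmp13 and Timp1 have all 3 saline D48 points above all other points. Mmp7 and Mmp12 owe their saline D48 means to 2 and 1 libraries.

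Among the membrane-bound enzymes, Mmp14, the collagenase that activates the Mmp2 precursor together with Timp2, had 117, 101 and 116 CPM with APX3330, 129, 119 and 117 CPM in saline D27, 164, 173 and 140 CPM in saline D48, 134, 115 and 127 CPM in saline D100, and 123, 105 and 109 CPM in Control. The saline D48 libraries were the 3 highest. Mmp14 rose by 0.50 ± 0.10 against Control (adjusted p = 0.0021) and fell with APX3330 against saline D48 (-0.51 ± 0.10, adjusted p = 0.00317), both in all alternatives. The fall in saline D100 against saline D48 (-0.34 ± 0.10, adjusted p = 0.0364) was lost without saline D48 replicate 1 or 2 or saline D100 replicate 2 or 3, among others, with adjusted p of up to 0.138. Mmp15, of the same class, fell with APX3330 against saline D48 (-0.52 ± 0.13, adjusted p = 0.0105) in all alternatives, with 145, 166 and 171 CPM against 245, 255 and 193 CPM. Its lower value in saline D100 than in saline D48 (adjusted p = 0.0463) was lost in 14 of 23 alternatives, among them any 1 library left out except APX3330 replicate 1, saline D27 replicate 3, saline D48 replicate 3 and saline D100 replicate 2 (adjusted p of 0.0109 to 0.229).

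The enzymes held by lipid anchors followed other patterns. Mmp25, leukolysin, known from neutrophils, had 1.62, 1.4 and 1.07 CPM with APX3330, 1.51, 1.17 and 1.55 CPM in saline D27, 3.57, 2.87 and 4.12 CPM in saline D48, 2.33, 2.76 and 3.31 CPM in saline D100, and 0.515, 0.584 and 0.533 CPM in Control. Every model library lay above every Control library. The rise against Control was 2.68 ± 0.32 in saline D48 (adjusted p = 5.53e-05) and 2.35 ± 0.32 in saline D100 (adjusted p = 0.000139), both in all alternatives. It was 1.37 ± 0.33 in saline D27 (adjusted p = 0.00925) and 1.32 ± 0.33 with APX3330 (adjusted p = 0.0144), and both of these calls were lost with no filter on low counts and without the 3 libraries with squamous transcripts. The APX3330 call was lost as well without Control replicate 1 or with only the 2 groups fitted, up to an adjusted p of 0.265. Mmp25 fell with APX3330 against saline D48 (-1.36 ± 0.29, adjusted p = 0.00483), which was lost without the pancreatic libraries (adjusted p = 0.086), and its rise against saline D27 (adjusted p = 0.0355) was lost in 12 of 23 alternatives, among them any 1 of the saline D27 or saline D48 libraries or saline D100 replicate 2 left out (adjusted p of 0.0113 to 0.363).

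Mmp17 had 14.9, 11.9 and 10.7 CPM with APX3330, 21.9, 25.3 and 23.6 CPM in saline D27, 15.3, 21.4 and 14 CPM in saline D48, 16.3, 14.4 and 13.3 CPM in saline D100, and 19.4, 17.4 and 19.2 CPM in Control. It was highest at day 27, where no library overlapped with any other group. Mmp17 fell with APX3330 against saline D27 (-0.92 ± 0.17, adjusted p = 0.00812) in all alternatives. The fall with APX3330 against Control (-0.58 ± 0.17, adjusted p = 0.0295) ended without APX3330 replicate 2 or 3, Control replicate 1 or 3 or the 3 libraries with squamous transcripts (adjusted p up to 0.364). That in saline D100 against saline D27 (-0.68, adjusted p = 0.038) ended without any 1 library of saline D27, saline D100 or Control (adjusted p of 0.00396 to 0.144).

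Mmp28, epilysin, a secreted enzyme of epithelia and macrophages, rose against Control at all 3 saline days and with APX3330. It had 14.5, 9.14 and 13.8 CPM with APX3330, 13.4, 16.6 and 16.6 CPM in saline D27, 20.5, 17.7 and 17.9 CPM in saline D48, 14.9, 20.8 and 16.6 CPM in saline D100, and 6.43, 6.28 and 5.66 CPM in Control. All 12 model libraries lay above the 3 Control libraries. The log2 fold changes against Control were 1.34 ± 0.19 in saline D27 (adjusted p = 0.000346), 1.61 ± 0.19 in saline D48 (adjusted p = 4.89e-05) and 1.51 ± 0.19 in saline D100 (adjusted p = 6.37e-05), each held in all alternatives. With APX3330 the rise against Control was 1.02 ± 0.19 (adjusted p = 0.00208), lost without the squamous libraries (0.98, adjusted p = 0.113). Mmp28 fell with APX3330 against saline D48 (-0.59 ± 0.18, adjusted p = 0.0321), a call lost without APX3330 replicate 2 or saline D48 replicate 1 or 3, among others (adjusted p up to 0.135).

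The inhibitors split into 1 gene that rose and 3 that fell. Timp1, the inducible inhibitor, had 2.09, 2.0 and 2.21 CPM with APX3330, 2.34, 2.41 and 4.4 CPM in saline D27, 6.75, 5.46 and 10.6 CPM in saline D48, 5.16, 1.99 and 2.63 CPM in saline D100, and 1.87, 2.12 and 1.46 CPM in Control. The 3 saline D48 libraries were the highest, with saline D100 replicate 1 next. Timp1 rose by 2.07 ± 0.38 in saline D48 against Control (adjusted p = 0.00107), a call lost without the squamous libraries (1.83, adjusted p = 0.0505). It fell with APX3330 against saline D48 (-1.85 ± 0.37, adjusted p = 0.00335), a call lost without the pancreatic libraries (-1.68, adjusted p = 0.0616). The fall in saline D100 against saline D48 (-1.23 ± 0.36, adjusted p = 0.0355) was lost without saline D48 replicate 1 or 3 or saline D100 replicate 2 or 3 (adjusted p up to 0.264).

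Timp2, which takes part in activating Mmp2, was the inhibitor with the highest level per length, at a mean of 47.9 CPM per kb over the 15 libraries. It had 164, 158 and 131 CPM with APX3330, 184, 151 and 169 CPM in saline D27, 214, 221 and 186 CPM in saline D48, 193, 179 and 147 CPM in saline D100, and 248, 220 and 237 CPM in Control. The Control libraries lay highest, with 1 saline D48 library reaching into their range. Timp2 fell against Control with APX3330 (-0.64 ± 0.12, adjusted p = 0.00252), in saline D27 (-0.48 ± 0.12, adjusted p = 0.0111) and in saline D100 (-0.44 ± 0.12, adjusted p = 0.0155), and was -0.18 ± 0.12 in saline D48 (adjusted p = 0.281). With APX3330 it was also lower than in saline D48 (-0.46 ± 0.12, adjusted p = 0.0155). All 3 calls against Control ended without the squamous libraries, the saline D27 one without saline D27 replicate 2 and the saline D100 one without saline D100 replicate 3 or Control replicate 1 (adjusted p up to 0.224). The call against saline D48 ended without APX3330 replicate 3 or the pancreatic libraries (adjusted p up to 0.095).

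Timp3, the matrix-bound inhibitor that also blocks Adam17 and Adamts enzymes, had 84.6, 96.6 and 86.8 CPM with APX3330, 89.9, 68 and 84.6 CPM in saline D27, 88.1, 94.6 and 78.4 CPM in saline D48, 92.3, 103 and 84 CPM in saline D100, and 133, 113 and 122 CPM in Control. All 12 model libraries lay below the 3 of Control. It fell in all 4 comparisons with Control, by 0.46 with APX3330 (SE 0.11, adjusted p = 0.0149), 0.60 in saline D27 (SE 0.11, adjusted p = 0.00255), 0.49 in saline D48 (SE 0.11, adjusted p = 0.00517) and 0.39 in saline D100 (SE 0.11, adjusted p = 0.022). With the 3 squamous libraries left out the values were -0.35, -0.50, -0.40 and -0.29 and none was called. The saline D48 call also ended without the pancreatic libraries. The APX3330 call ended without APX3330 replicate 3 or Control replicate 1, and the saline D100 call without saline D100 replicate 1 or 3 or Control replicate 1 or 3 (adjusted p up to 0.429).

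Timp4 was low and lay below Control in every model library. It had 5.13, 4.93 and 4.69 CPM with APX3330, 3.85, 3.31 and 4.22 CPM in saline D27, 6.15, 4.46 and 5.98 CPM in saline D48, 6.36, 3.2 and 2.03 CPM in saline D100, and 9.52, 7.67 and 9.05 CPM in Control. It fell in saline D27 (-1.20 ± 0.31, adjusted p = 0.0133) and in saline D100 (-1.18 ± 0.31, adjusted p = 0.0132). The log2 fold changes with APX3330 (-0.83, adjusted p = 0.0785) and in saline D48 (-0.66, adjusted p = 0.12) did not pass. The saline D27 call ended without saline D27 replicate 2 or the squamous libraries, and the saline D100 call without saline D100 replicate 2 or 3. The summed smooth muscle markers, 4552 to 6013 CPM with APX3330, 7723 to 10349 CPM in saline D27, 5259 to 6246 CPM in saline D48 and 5411 to 7098 CPM in saline D100, were also below the 10617 to 10927 CPM of Control. Of the 8 markers, 0 rose and 0 fell in saline D27 against Control. With APX3330, in saline D48 and in saline D100, 7 fell and 0 rose each time. The part of smooth muscle in the lower Timp values was not tested.

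**Figure D5:**
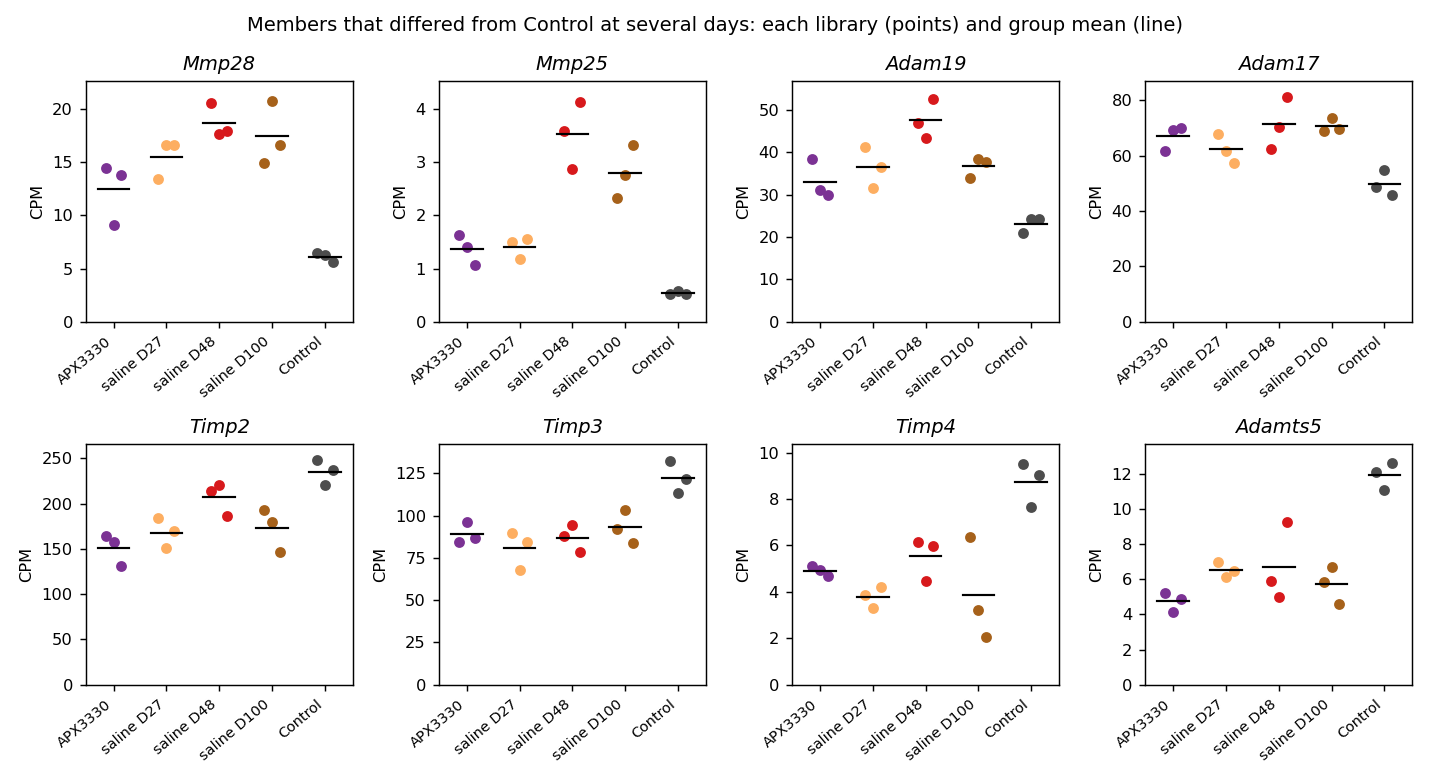
CPM per library of Mmp28, Mmp25, Adam19, Adam17, Timp2, Timp3, Timp4 and Adamts5 in the 5 groups, with 1 point per library and a line at the group mean, each panel on its own axis from 0. Mmp28, Mmp25, Adam19 and Adam17 have all model points above the Control points, and Timp3, Timp4 and Adamts5 have them all below.

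Adam10, the sheddase of Notch receptors, E-cadherin and several growth factors, had 165, 168 and 163 CPM with APX3330, 147, 127 and 158 CPM in saline D27, 158, 172 and 175 CPM in saline D48, 170, 162 and 177 CPM in saline D100, and 132, 159 and 146 CPM in Control. The APX3330 and saline D100 libraries lay above those of saline D27 and Control, by a few CPM at the closest, and saline D48 overlapped with all 4. No comparison called it (adjusted p = 0.101 over the 5 groups). Adam17, the tumour necrosis factor converting enzyme, had 61.6, 69.1 and 70 CPM with APX3330, 67.9, 61.8 and 57.4 CPM in saline D27, 62.5, 70.5 and 81 CPM in saline D48, 69, 73.6 and 69.7 CPM in saline D100, and 48.5, 54.9 and 45.7 CPM in Control. All 12 model libraries lay above Control, the closest at 57.4 and 54.9 CPM.

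Adam17 rose against Control by 0.43 ± 0.11 with APX3330 (adjusted p = 0.0132), 0.33 ± 0.11 in saline D27 (adjusted p = 0.0406), 0.52 ± 0.11 in saline D48 (adjusted p = 0.00206) and 0.51 ± 0.11 in saline D100 (adjusted p = 0.00293). Without the 3 squamous libraries the 4 values were 0.28, 0.17, 0.36 and 0.37 and none was called, and the saline D48 call also ended without the pancreatic libraries. The saline D27 call ended in 10 of the 23 alternatives, among them those without saline D27 replicate 1 or 2, saline D48 replicate 2, saline D100 replicate 1 or 3, or Control replicate 1 or 3 (adjusted p of 0.00664 to 0.607). The APX3330 call ended without Control replicate 1 or 3 as well. Adam17 overlaps the Iah1 gene on the other strand, and whether strand was used in counting is not given in the sources used here.

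Adam8 and Adam19 were the catalytically active Adam genes whose rise in saline D48 against Control held in all 23 alternatives. Adam8, a protease of leukocytes, had 6.82, 9.47 and 6.97 CPM with APX3330, 12.3, 8.81 and 7.94 CPM in saline D27, 16.5, 20.7 and 18.4 CPM in saline D48, 21.3, 11.4 and 10.5 CPM in saline D100, and 5.08, 4.67 and 7.92 CPM in Control. Saline D48 lay above APX3330, saline D27 and Control, and saline D100 replicate 1 was the highest library of all. It rose by 1.65 ± 0.28 in saline D48 (adjusted p = 0.000652, held in all alternatives) and by 1.28 ± 0.28 in saline D100 (adjusted p = 0.0044), the second call being lost without the squamous libraries (1.21, adjusted p = 0.0558). With APX3330 it fell against saline D48 (-1.25 ± 0.28, adjusted p = 0.00599), lost without the pancreatic libraries (-1.09, adjusted p = 0.13).

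Adam19, meltrin beta, had 38.3, 31.1 and 29.8 CPM with APX3330, 41.3, 31.5 and 36.6 CPM in saline D27, 46.8, 43.4 and 52.5 CPM in saline D48, 34, 38.5 and 37.7 CPM in saline D100, and 20.9, 24.2 and 24.2 CPM in Control. All model libraries lay above Control, and saline D48 highest. It rose against Control by 0.52 ± 0.13 with APX3330 (adjusted p = 0.0143), 0.66 ± 0.13 in saline D27 (adjusted p = 0.00284), 1.04 ± 0.13 in saline D48 (adjusted p = 7.12e-05) and 0.67 ± 0.13 in saline D100 (adjusted p = 0.00184). The saline D48 call held in all alternatives, the other 3 ended without the squamous libraries, and that of APX3330 also without APX3330 replicate 1 or Control replicate 1 (adjusted p up to 0.291). With APX3330 Adam19 was lower than in saline D48 (-0.52 ± 0.13, adjusted p = 0.0101), lost without the pancreatic libraries (adjusted p = 0.132).

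Adam12, meltrin alpha, low in most adult tissue, had 1.42, 1.2 and 1.67 CPM with APX3330, 2.12, 2.13 and 2.11 CPM in saline D27, 3.24, 4.73 and 7.08 CPM in saline D48, 1.2, 1.41 and 1.81 CPM in saline D100, and 0.45, 1.46 and 0.932 CPM in Control. Saline D48 was highest and saline D27 next, with no overlap with the other groups. Adam12 rose by 2.41 ± 0.39 in saline D48 against Control (adjusted p = 0.000484) and fell with APX3330 (-1.81 ± 0.38, adjusted p = 0.00427) and in saline D100 (-1.77 ± 0.38, adjusted p = 0.00718) against saline D48. Without the pancreatic libraries these were 1.78, -1.18 and -1.14 and not called (adjusted p = 0.0508, 0.228 and 0.264), and the first was also lost without the squamous libraries.

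Adam15, metargidin, was lower in saline D100 than in every other group. It had 99.1, 82.8 and 96.3 CPM with APX3330, 110, 112 and 99.4 CPM in saline D27, 115, 104 and 99.7 CPM in saline D48, 72.4, 61.8 and 68.5 CPM in saline D100, and 104, 111 and 91.5 CPM in Control. The 3 saline D100 libraries lay below the other 12. It fell by 0.60 against Control (SE 0.10, adjusted p = 0.00069), by 0.67 against saline D27 (SE 0.10, adjusted p = 0.00884) and by 0.65 against saline D48 (SE 0.10, adjusted p = 0.00111), and these calls held in all alternatives. APX3330 against saline D100 gave 0.46 with an adjusted p of 0.0567. Adam9, another widely expressed sheddase, rose by 0.30 ± 0.09 in saline D100 against Control (adjusted p = 0.0277), which was lost without saline D100 replicate 2, Control replicate 1 or 3 and in other settings (adjusted p up to 0.406).

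Adam11, Adam22 and Adam23 lack a working protease site and are known from neurons, where Adam22 and Adam23 bind secreted Lgi proteins. Adam23 had 20.9, 20.3 and 19.5 CPM with APX3330, 17.6, 18.3 and 15.6 CPM in saline D27, 17.3, 16.9 and 18.6 CPM in saline D48, 26.4, 26.8 and 29 CPM in saline D100, and 13.9, 14.2 and 13.4 CPM in Control. Saline D100 was highest and Control lowest, without overlap, and the APX3330 libraries lay between saline D100 and the earlier saline days. It rose in saline D100 by 0.99 ± 0.11 against Control (adjusted p = 2.46e-05, held in all alternatives), by 0.68 ± 0.11 against saline D27 (adjusted p = 0.0092) and by 0.64 ± 0.11 against saline D48 (adjusted p = 0.00185). The call against saline D27 was lost without saline D100 replicate 3 (adjusted p = 0.0543) and that against saline D48 without the pancreatic libraries (adjusted p = 0.0541). With APX3330 it rose by 0.55 ± 0.11 against Control (adjusted p = 0.00349), lost without the squamous libraries (adjusted p = 0.176). Its smaller value in saline D48 (0.35, adjusted p = 0.0267) was lost in 9 of 23 alternatives. Among them were those without saline D48 replicate 1 or 3 or any 1 Control library. The call was also lost without the pancreatic libraries (0.33) and without the squamous libraries (0.29).

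Adam22 had 10.7, 13.6 and 9.91 CPM with APX3330, 10.6, 11.8 and 12.2 CPM in saline D27, 6.15, 8.73 and 6.62 CPM in saline D48, 7.49, 11.4 and 10.7 CPM in saline D100, and 6.43, 6.06 and 6.26 CPM in Control. It was the only one of the 53 genes called higher with APX3330 than in saline D48 (0.67 ± 0.20, adjusted p = 0.0262), and the groups did not overlap. Leaving out APX3330 replicate 2 or saline D48 replicate 1 or 3 ended that call, as did leaving out the pancreatic libraries (0.89) and other settings (adjusted p up to 0.121). Against Control it rose by 0.87 ± 0.20 with APX3330 (adjusted p = 0.00889), 0.88 ± 0.20 in saline D27 (adjusted p = 0.00652) and 0.66 ± 0.20 in saline D100 (adjusted p = 0.0272). All 3 ended without the squamous libraries (adjusted p = 0.131, 0.108 and 0.128), and the third also without saline D100 replicate 2 or 3 or any 1 Control library.

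Adam11 went the other way, with 11.3, 7.2 and 7.84 CPM with APX3330, 16.7, 19.3 and 14.8 CPM in saline D27, 14.4, 11.3 and 10.1 CPM in saline D48, 9.96, 10 and 10.2 CPM in saline D100, and 20, 20 and 18.4 CPM in Control. APX3330 lay below saline D27 and Control without overlap. Adam11 fell with APX3330 against Control (-1.15 ± 0.18, adjusted p = 0.000898) and against saline D27 (-0.94 ± 0.18, adjusted p = 0.00928), in all alternatives. It fell against Control in saline D48 (-0.71 ± 0.18, adjusted p = 0.00816) and in saline D100 (-0.95 ± 0.18, adjusted p = 0.0016), calls lost without the squamous libraries, the first also without the pancreatic ones. The value of saline D100 against saline D27 (-0.75, adjusted p = 0.0368) was lost without saline D27 replicate 1 or 2 or any 1 library of saline D100 or Control (adjusted p of 0.00358 to 0.156). It was also lost without the squamous libraries (-0.74). Of the enteric neuron and glia markers fixed for the check, 4 fell and 0 rose with APX3330 against Control, and 3 fell and 0 rose against saline D27, and their part in these results was not tested.

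Adam33, an active protease known from smooth muscle and fibroblasts, had 37.5, 28.7 and 20.2 CPM with APX3330, 50.7, 55.8 and 50.7 CPM in saline D27, 42.5, 36.9 and 34.3 CPM in saline D48, 37.8, 34.4 and 34.5 CPM in saline D100, and 69.5, 56 and 59.2 CPM in Control. Control lay highest and saline D27 next, each without overlap with the groups below. Adam33 fell with APX3330 against Control (-1.10 ± 0.17, adjusted p = 0.000619) and against saline D27 (-0.86 ± 0.16, adjusted p = 0.00917, held in all alternatives). Against Control it also fell in saline D48 (-0.70 ± 0.16, adjusted p = 0.00524) and in saline D100 (-0.79 ± 0.16, adjusted p = 0.00292). Without the squamous libraries the 3 values against Control were -0.97, -0.58 and -0.72, with adjusted p of 0.0532, 0.149 and 0.127, and the saline D48 call also ended without the pancreatic ones. Of the 8 smooth muscle markers, 7 fell and 0 rose with APX3330, in saline D48 and in saline D100 against Control, and with APX3330 against saline D27, and their part in the Adam33 result was not tested.

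Among the Adamts enzymes that cut proteoglycans, Adamts4, an aggrecanase, had 4.86, 9.74 and 8.24 CPM with APX3330, 10.5, 11.1 and 8.68 CPM in saline D27, 28.1, 17.9 and 15.2 CPM in saline D48, 6.99, 7.88 and 9.03 CPM in saline D100, and 5.21, 12 and 4.66 CPM in Control. The saline D48 libraries were the 3 highest. Adamts4 fell with APX3330 against saline D48 (-1.42 ± 0.33, adjusted p = 0.00871) in all alternatives. It rose by 1.49 ± 0.34 in saline D48 against Control (adjusted p = 0.00429), lost without the squamous libraries, where the 12 CPM library stands alone for Control (0.75, adjusted p = 0.259). Its fall in saline D100 against saline D48 (-1.35 ± 0.33, adjusted p = 0.0149) was lost without saline D48 replicate 1 or saline D100 replicate 1 or 2 (adjusted p up to 0.0732).

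Adamts5, the other main aggrecanase, was lower in every model group. It had 5.2, 4.13 and 4.89 CPM with APX3330, 6.97, 6.13 and 6.45 CPM in saline D27, 5.89, 5 and 9.29 CPM in saline D48, 5.86, 6.73 and 4.59 CPM in saline D100, and 12.1, 11.1 and 12.6 CPM in Control. No model library reached the Control range. It fell by 1.33 with APX3330 (SE 0.23, adjusted p = 0.0015), 0.87 in saline D27 (SE 0.22, adjusted p = 0.0138), 0.83 in saline D48 (SE 0.22, adjusted p = 0.0129) and 1.06 in saline D100 (SE 0.23, adjusted p = 0.00384). Without the squamous libraries the values were -1.23, -0.78, -0.74 and -0.98 and not called, with adjusted p of 0.0839, 0.232, 0.206 and 0.154. The saline D27 and D48 calls also ended without saline D27 replicate 2 and saline D48 replicate 2.

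Adamts9, Adamts15 and Adamts1, further proteoglycan-cutting enzymes, were lowest at day 100. Adamts9 had 5.4, 11.9 and 10.2 CPM with APX3330, 7.53, 9.3 and 10.7 CPM in saline D27, 7.48, 9.2 and 9.23 CPM in saline D48, 8.48, 6.03 and 3.39 CPM in saline D100, and 13.6, 21.5 and 14.8 CPM in Control. All Control libraries lay above all others, and Adamts9 fell by 1.47 in saline D100 (SE 0.32, adjusted p = 0.00393), in all alternatives. Its value in saline D48 (-0.94, adjusted p = 0.034) was lost without any 1 saline D48 library or Control replicate 2 or 3 (adjusted p of 0.00219 to 0.169). Adamts15 had 85.3, 61.2 and 31.8 CPM in saline D100, against 108, 135 and 95.7 CPM in Control. It fell by 0.92 (SE 0.26, adjusted p = 0.0202), lost without saline D100 replicate 2 or 3 or Control replicate 2. Its value against saline D48 (-0.87, adjusted p = 0.0391) was lost without APX3330 replicate 2, saline D27 replicate 3, any 1 saline D48 library or saline D100 replicate 2 or 3 (adjusted p of 5.55e-07 to 0.149). Adamts1 had 23.6, 14.7 and 15.1 CPM in saline D100, against 29.8, 30.8 and 21.7 CPM in Control, and saline D100 replicate 1 overlapped with Control. Its fall of -0.62 ± 0.21 (adjusted p = 0.0438) was lost without saline D27 replicate 1, saline D100 replicate 2 or 3 or Control replicate 1 or 2 (adjusted p of 0.00373 to 0.166).

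The procollagen N-propeptidases, Adamts2, Adamts3 and Adamts14, which trim collagen precursors, all fell with APX3330 against saline D48. Adamts14 had 3.31, 2.13 and 1.74 CPM with APX3330, 2.17, 2.48 and 2.91 CPM in saline D27, 6.02, 5.66 and 4.82 CPM in saline D48, 2.68, 2.37 and 4.36 CPM in saline D100, and 5.15, 4.82 and 4.13 CPM in Control. APX3330 and saline D27 lay below saline D48 and Control without overlap. Adamts14 fell with APX3330 against saline D48 (-1.20 ± 0.29, adjusted p = 0.0104), lost without the pancreatic libraries (-1.33, adjusted p = 0.0833). Against Control its values in saline D27 (-0.90, adjusted p = 0.0412) and with APX3330 (-0.97, adjusted p = 0.0353) were lost in 10 and 9 of 23 alternatives, among them those without any 1 saline D27 or Control library for the first and those without APX3330 replicate 2 or 3 or any 1 Control library for the second. Adamts2 and Adamts3 lie outside the rule for named genes and were chosen after their values were seen. Adamts2 had 26.3, 28.2 and 25.8 CPM with APX3330, against 38.5, 43.4 and 37.2 CPM in saline D48, with no overlap, and fell by 0.57 (SE 0.11, adjusted p = 0.00286). Adamts3 fell by 1.65 there (SE 0.37, adjusted p = 0.00682). Without the pancreatic libraries both calls were lost, at -0.52 for Adamts2 (adjusted p = 0.0785) and -1.69 for Adamts3 (adjusted p = 0.0878).

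Adamts17, Adamts19 and Adamts16 were low, with 451, 496 and 83 counts over all libraries. Adamts17 fell with APX3330 against saline D48 (-1.73 ± 0.37, adjusted p = 0.00516), lost without the pancreatic libraries (-1.84, adjusted p = 0.0625), and its value against Control (-1.23, adjusted p = 0.0394) was lost in 12 of 23 alternatives, among them those without any 1 APX3330 library, saline D27 replicate 1 or Control replicate 2 or 3. Adamts19 fell in saline D100 against Control (-1.90 ± 0.43, adjusted p = 0.00543), lost without the squamous libraries (-1.59, adjusted p = 0.145), and its value with APX3330 (-1.28, adjusted p = 0.0478) was lost in 14 of 23, among them those without any 1 APX3330 library, saline D27 replicate 1 or 2, saline D48 replicate 1 or 2, saline D100 replicate 3 or Control replicate 1 or 3. Adamts16, also chosen after its values were seen, had 0 counts in the 3 APX3330 libraries, against 26 counts in saline D27, 27 counts in saline D48, 4 counts in saline D100 and 26 counts in Control. With 3 counts set in place of the 0 of APX3330, it was 7.98-fold lower than in saline D27, 8.50-fold lower than in saline D48 and 8.76-fold lower than in Control. Against saline D100 this ratio was 1.39-fold, and with 4 counts there a difference is not shown. The ratios take the count of the other group as exact and leave out the spread between libraries, so they are not lower bounds. In the edgeR fit Adamts16 fell with APX3330 against saline D27, saline D48 and Control. The call against saline D27 was lost in 15 of 22 alternatives, and saline D27 replicate 3 stood above the other libraries of its group. Those against saline D48 and Control were each lost in 5 of 22.

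Of the 27 genes lower with APX3330 than in saline D48, the 7 not yet described were Mmp11, Mmp19, Mmp23, Adamts6, Adamts7, Adamts10 and Adamts12, named here after their values were seen. Among them Mmp11, stromelysin-3, known from fibroblasts around tumours, fell by 1.21 (SE 0.25, adjusted p = 0.00384), in all alternatives, and was at -1.44 without the pancreatic libraries. The group mean of 24 of the 53 genes was lowest with APX3330, and no gene was called against saline D100. For that comparison edgeR gave 8 of 53 genes with an unadjusted p under 0.05, Mmp3, Mmp16, Mmp25, Mmp28, Adam8, Adam15, Adam23 and Adam28, and 0 after adjustment. DESeq2 called 2, limma-voom 0 and the edgeR fit with no filter on low counts 4. The shares of all genes in these settings, and at an unadjusted p under 0.05, are not given here. These counts therefore cannot be set beside the background. The APX3330 group has no day in its labels, so none of the 3 saline groups is known to be matched to it in time.

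In all, 6 lists of related genes, chosen with earlier results of these data known, were read from the same fit. Of 12 genes of the plasminogen system and other protease inhibitors, 5 rose and 1 fell in saline D48 against Control, and 1 rose and 4 fell with APX3330 against saline D48, with medians of 0.49 and -0.75. Over all genes these comparisons called 14.3% higher and 13% lower, and 9.41% higher and 10.3% lower. Slpi, an inhibitor of serine proteases at mucosal surfaces, had 4.12, 3.93 and 4.02 CPM with APX3330, 8.75, 10.9 and 17.4 CPM in saline D27, 35.3, 33.8 and 108 CPM in saline D48, 10.5, 7.24 and 6.55 CPM in saline D100, and 16.7, 6.13 and 13.9 CPM in Control. APX3330 was lowest and saline D48 highest, with no overlap with other groups. It fell with APX3330 against saline D48 (-3.88 ± 0.47, adjusted p = 0.000136), saline D27 (-1.62, adjusted p = 0.04) and Control (-1.61, adjusted p = 0.0282), and rose by 2.27 ± 0.43 in saline D48 against Control (adjusted p = 0.00133). Without the pancreatic libraries, of which saline D48 replicate 3 holds the 108 CPM, the calls against saline D48 and of saline D48 against Control held at -3.13 and 1.52. The other calls, against saline D27 and Control, were lost without any 1 APX3330 library, without Control replicate 3, without the squamous libraries and with limma-voom. The first was also lost without any 1 saline D27 library or saline D100 replicate 2 or 3, and the second without Control replicate 1 (adjusted p up to 0.686). Plaur, the urokinase receptor, rose by 1.33 ± 0.20 in saline D48 against Control (adjusted p = 0.000298), with 21, 18.7 and 17.6 CPM against 8.43, 6.72 and 7.59 CPM, and the call held in all alternatives.

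Of the 14 tested matrix substrates of Adamts enzymes, 0 rose and 7 fell with APX3330 against saline D48 (median -0.55), beside 9.41% and 10.3% of all genes, and 1 rose and 6 fell with APX3330 against Control (median -0.58), where 7.16% of all genes rose and 8.18% fell. Col1a1, the main chain of type I collagen and also one of the 9 fibroblast markers, had 323, 249 and 304 CPM with APX3330, 394, 361 and 376 CPM in saline D27, 679, 632 and 581 CPM in saline D48, 286, 277 and 297 CPM in saline D100, and 461, 554 and 488 CPM in Control. Its order of groups was saline D48, Control, saline D27 and then APX3330 together with saline D100. It fell with APX3330 against saline D48 (-1.11 ± 0.11, adjusted p = 3.35e-05), in all alternatives, at -1.22 without the pancreatic libraries. Of 7 Adamts-like genes, which lack the protease part, 0 rose and 3 fell in saline D100 against Control, and 0 rose and 2 fell with APX3330. Over all genes 11.4% rose and 10.5% fell in saline D100 against Control.

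Of 11 other metalloproteinases outside the name rule, 0 rose and 5 fell in saline D27, 0 rose and 4 fell in saline D48, 0 rose and 7 fell in saline D100 and 1 rose and 5 fell with APX3330, each against Control. Over all genes 9.36%, 13%, 10.5% and 8.18% fell in these comparisons. Mep1a, the meprin of the epithelial brush border, had 113, 171 and 173 CPM with APX3330, 157, 119 and 168 CPM in saline D27, 201, 121 and 137 CPM in saline D48, 117, 130 and 146 CPM in saline D100, and 305, 305 and 312 CPM in Control. Every model library lay far below Control, and Mep1a fell by 1.01 with APX3330 (SE 0.19, adjusted p = 0.00233) and by 1.23 in saline D100 (SE 0.19, adjusted p = 0.000348). The APX3330 call was lost without the squamous libraries (-1.01, adjusted p = 0.0848). Bmp1, the procollagen C-proteinase, had 36, 27.2 and 29.9 CPM with APX3330, against 60.9, 69.8 and 61.3 CPM in saline D48 and 60.1, 54.9 and 58.7 CPM in Control. It fell in both comparisons (-1.04, adjusted p = 9.62e-05, and -0.90, adjusted p = 0.000258), in all alternatives.

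Of 10 partners of Adam10 and Adam17, 2 rose and 2 fell with APX3330 against saline D48, where 9.41% and 10.3% of all genes did, which for a list of this size is near the background. Against Control, 2 rose and 3 fell in saline D27 (10.2% and 9.36% of all genes). In saline D48, 2 rose and 4 fell (14.3% and 13%), and in saline D100 1 rose and 2 fell (11.4% and 10.5%). With APX3330, 1 rose and 1 fell (7.16% and 8.18%). Tspan33, a tetraspanin that escorts Adam10 to the cell surface, had 32.4, 29.5 and 26 CPM with APX3330, 15.6, 15.8 and 19.4 CPM in saline D27, 18, 14.3 and 13.6 CPM in saline D48, 16.6, 14.1 and 18.2 CPM in saline D100, and 34.8, 23.4 and 25 CPM in Control. APX3330 and Control overlapped, and both lay above all 9 saline libraries. It rose with APX3330 against saline D27 (0.79, adjusted p = 0.0135), saline D48 (0.94, adjusted p = 0.00184) and saline D100 (0.85 ± 0.17, adjusted p = 0.0424). The saline D27 call was lost without saline D27 replicate 1 or 2, and that against saline D48 without the pancreatic libraries (0.70, adjusted p = 0.121). The saline D100 call was lost without any 1 library of APX3330 or saline D100, saline D27 replicate 1 or 3, saline D48 replicate 2, Control replicate 3 or the squamous libraries (adjusted p of 0.000171 to 0.166). Of 19 proteins shed by these enzymes, 6 rose and 2 fell in saline D48 against Control and 0 rose and 8 fell with APX3330 against saline D48 (median -0.31), beside 14.3% and 13%, and 9.41% and 10.3%, of all genes. Cd44, a hyaluronan receptor, had 52.4, 46.4 and 52.6 CPM with APX3330, against 75.4, 78.4 and 102 CPM in saline D48, 78.1, 78 and 74.1 CPM in saline D100 and 38.7, 50.5 and 42.5 CPM in Control. It fell with APX3330 against saline D48 (-0.76, adjusted p = 0.000898) and against saline D100 (-0.61 ± 0.12, adjusted p = 0.0424). Without the pancreatic libraries the first was -0.58 and still called. The second was lost with the same libraries left out as for Tspan33 against saline D100 and with the replicate block (adjusted p of 0.000419 to 0.162).

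Of the tested genes, 9 were called in no pairwise comparison: Adam1a, Adam4, Adam10, Adam28, Adamts8, Adamts13, Adamts20, Mmp16 and Mmp24. Of these, Adam28 had 0 counts with APX3330, 1 count in saline D27, 17 counts in saline D48, 31 counts in saline D100 and 29 counts in Control. Its highest libraries were saline D100 replicate 1 at 2.12 CPM, Control replicate 1 at 1.48 CPM, saline D48 replicate 2 at 1.07 CPM and Control replicate 3 at 0.399 CPM, which are the libraries with squamous markers. The other 27 of the 80 genes were not tested. Adam2, Adam20, Adam24, Adam25, Adam26a, Adam26b, Adam29, Adam34, Adam34l, Adam39, Mmp1a and Mmp1b had no counts in any library, and the remaining 15, several of them known from testis, had 1 to 50 counts over all libraries. Genes of the families that overlap another gene on the opposite strand, among them Adam8, Adam15, Adam19, Adamts4, Adamts9, Mmp7, Mmp12, Mmp28, Timp3 and Timp4, carry that uncertainty in their levels, and near-identical copies such as Adam26a and Adam26b could share reads.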

How the data were processed

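RNA of whole colon was taken up with a column kit, and 1.3 ug of total RNA per sample went into an mRNA library kit, per the labels' protocols. The authors deposited 1 table of raw counts per gene name, with 15 columns that were all matched to samples by name (0 left over). The submitters' processing notes name GRCm38 and mm10, and of the aligner, counter and strand setting no source used here gives a name. Counts were fitted with edgeR 4.0.16 (R 4.3.3): TMM scaling, filterByExpr (18038 of 56859 genes kept), glmQLFit over all 15 libraries and glmQLFTest for 10 contrasts and an F test over the 5 groups, with Benjamini-Hochberg adjustment and a threshold of 0.05. Standard errors are the log2 fold change divided by the square root of F. CPM uses TMM-scaled library sizes, and levels per kb use GENCODE M21 exon lengths (79 of 80 genes matched). Promoter windows are RefSeq sequences of GRCm38.p6. Library totals were 13548661 to 17919613. Ratios for a group with 0 counts use 3 counts in its place and take the other count as exact. Named are the 4 Timp genes, up to 6 genes called in each direction per comparison with a mean of at least 1 CPM, the 5 highest per kb, 16 genes of colon injury and shedding, and up to 3 per related list. Members and lists were chosen with earlier results of these data known. Alternatives were DESeq2 1.42.0 size factors and test, limma 3.58.1 voom weights, no filter, a replicate block, only 2 groups, and each library left out. The 2 settings without libraries of mixed tissue and all settings for the related genes were added after seeing the data. The fit was tested on simulated data.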

Additional observations from a re-analysis of the deposited data

How the results depend on the processing

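The number of metalloproteinase genes called moved by over 1.5 times in these settings. Shares over all genes are not given for the counts below, except those stated above for the settings without mixed libraries. The counts show how the calls moved and not how they stand beside the background. With the DESeq2 test it was 8 for APX3330 against saline D27 (5 in the report), 2 for APX3330 against saline D100 (0) and 15 for saline D48 against saline D27 (5). With limma-voom it was 9 for APX3330 against saline D27, 8 for saline D100 against saline D27 (4) and 8 for saline D48 against saline D27. With no filter on low counts it was 8, 4, 7 and 14 for APX3330 against saline D27, APX3330 against saline D100, saline D100 against saline D27 and saline D48 against saline D27, and with only the 2 groups fitted 3 for the last. Without the 2 libraries with pancreatic transcripts it was 7 for APX3330 against saline D48 (28), 11 for saline D48 against Control (23), 2 for saline D48 against saline D27 and 5 for saline D100 against saline D48 (17). Without the 3 libraries with squamous transcripts it was 2 for APX3330 against Control (18), 3 for APX3330 against saline D27, 9 for saline D100 against Control (21), 2 for saline D100 against saline D27, 1 for saline D27 against Control (12) and 9 for saline D48 against Control. Both settings leave 1 library in a group, and a loss from fewer libraries cannot be told apart from a loss from leaving out the mixed libraries. Leaving out 1 library at a time gave 11 to 19 for APX3330 against Control, 3 to 6 for APX3330 against saline D27, 20 to 29 for APX3330 against saline D48, 0 to 1 for APX3330 against saline D100, 7 to 14 for saline D27, 20 to 24 for saline D48 and 15 to 21 for saline D100 against Control, 2 to 6 for saline D48 and 1 to 5 for saline D100 against saline D27, 9 to 20 for saline D100 against saline D48, and 31 to 40 over the 5 groups. The lowest of these came without Control replicate 1 (APX3330 against Control), saline D27 replicate 2 (saline D27 against Control, and saline D48 against saline D27), saline D48 replicate 1 (saline D100 against saline D48) and saline D100 replicate 3 (saline D100 against saline D27). For APX3330 against saline D27 the lowest, 3, came without APX3330 replicate 2 or 3 or saline D27 replicate 1 or 2. Saline D48 against saline D27 fell to 3 without saline D27 replicate 1 or 3 or saline D48 replicate 2 or 3, and saline D100 against saline D27 to 2 without any 1 of saline D27 replicates 1 and 2, saline D100 replicates 1 and 2 and the 3 Control libraries. Of 2599 alternative values for the 113 calls of the 36 metalloproteinase and inhibitor genes named by the rule, 2301 kept direction and call, 298 kept the direction but lost the call and 0 reversed. For the genes named from the related lists together with Adamts2, Adamts3, Adamts16 and Mmp11 (22 genes, 99 calls), 2007 of 2274 values kept direction and call, 267 lost the call and 0 reversed. Same-numbered libraries did not deviate together: 2 of 30 pairs had a correlation over 0.1. In 15 of 60 combinations of a library with another group, the library correlated best with its own number. With the replicate block the counts were 16, 5, 27 and 0 for APX3330 against Control, saline D27, saline D48 and saline D100, 11, 22 and 20 for saline D27, saline D48 and saline D100 against Control, 4 and 5 for saline D48 and saline D100 against saline D27, 19 for saline D100 against saline D48, and 39 over the 5 groups. Genes with few counts, such as Mmp8, Adam28 and Adamts16, are limited by depth.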
